A study of Mus musculus with 2 samples.

Results

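Mir378a, a microRNA (miRNA) gene in an intron of Ppargc1b, and Mir378b, a second locus of the same family, were followed in the heart of newborn mice. Both were chosen from measured values of 2 small RNA libraries: the reads of Mir378a were counted under Gm25301, a predicted miRNA gene on the opposite strand of the same position, and Mir378b was taken from its own row. They were 2 of the 1973 gene rows in the count tables. The samples were 2 single hearts of B6NCrl pups on postnatal day 0, for which the labels give no genotype or treatment, from pregnant female 1. Pup 2 gave replicate 1 and pup 3 gave replicate 2, with 1 library per heart, and sex was not collected. The libraries held total RNA with inserts below 30 nt, and the series had no second condition. Both samples carry the same donor record in the labels, although the labels also name pups 2 and 3 of pregnant female 1. They were taken as 2 animals of 1 litter. The SD over the pups (n = 2) is thus a spread within 1 litter, and animal and library cannot be told apart. The libraries held 5052766 reads in replicate 1 and 7441784 in replicate 2, of which 2323450 and 3487183 lay on the sense strand of a miRNA gene.

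MicroRNAs are cut from hairpin precursors and guide silencing complexes to messenger RNAs, mainly through the seed near their 5′ end. Ppargc1b encodes PGC-1beta, a coactivator of nuclear receptors that drives genes of mitochondrial biogenesis and fatty acid oxidation, which makes its intron a metabolic address for a miRNA. The miR-378 family is known from heart, skeletal muscle and brown fat, where it acts on energy metabolism, with carnitine acetyltransferase (Crat) among its known targets. In heart muscle cells it is also known to repress the IGF1 receptor and members of the MAP kinase pathway.

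The mature sequences show why a read of Mir378b or Mir378c may fit both of these loci. RefSeq, on GRCm38.p6, gave mature sequences for 3 of the 4 loci sought (Mir378b, Mir378c and Mir378d, not Mir378a). Each is written 5′ to 3′ with its seed, bases 2 to 8, in capitals.

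miR-378b: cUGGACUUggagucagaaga

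miR-378c: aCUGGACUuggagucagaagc

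miR-378d: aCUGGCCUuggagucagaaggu

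miR-378b and miR-378c shared a run of 19 nt, of 20 and 21 nt in all. The annotated miR-378b begins 1 base further in, so the same run gives these 2 miRNAs different seeds. Counted from the 5′ end of miR-378c, miR-378d differed from it at A6C, inside the seed, and at C21G. Of 1679 mature mouse miRNAs in the RefSeq set, no other carried any of the 3 seeds. That set gave no mature miRNA of Mir378a, so whether Mir378a shares 1 of these seeds was not tested. The Mir378b precursor of 92 nt, with the mature miRNA in capitals at its 3′ side, bases 67 to 86, is shown because this member rests on its few reads.

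Mir378b precursor: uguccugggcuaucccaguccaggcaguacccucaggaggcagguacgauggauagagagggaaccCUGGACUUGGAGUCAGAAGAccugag

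On GRCm38, which is the assembly called mm10, Mir378b lies on chromosome 11, 88352773 to 88352864, plus strand, within Msi2 but on the other strand and outside its exons. Mir378c lies on chromosome 14, 46954830 to 46954928, minus strand, likewise on the other strand of an intron of Samd4. Mir378d lies on chromosome 10, 126710282 to 126710391, minus strand, inside no protein-coding gene.

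Mir378a was the only locus of the 4 that lay in a protein-coding gene on the strand of that gene. It spans chromosome 18, 61397835 to 61397900, minus strand, 66 nt, in the first intron of all 3 Ppargc1b transcripts that contain it. Ppargc1b runs from 61298136 to 61400431 on the minus strand. Mir378a starts 2500 nt downstream of the start of Ppargc1b-201 and 2389 nt beyond the end of its first exon. Gm25301 spans 61397813 to 61397925 on the plus strand, 113 nt, and holds Mir378a entirely, so a read of Mir378a is an opposite-strand read for that row. The nearest counted miRNA genes on the chromosome were the smooth muscle genes Mir145a and Mir143, 250 and 251 kb away.

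**Figure D1:**
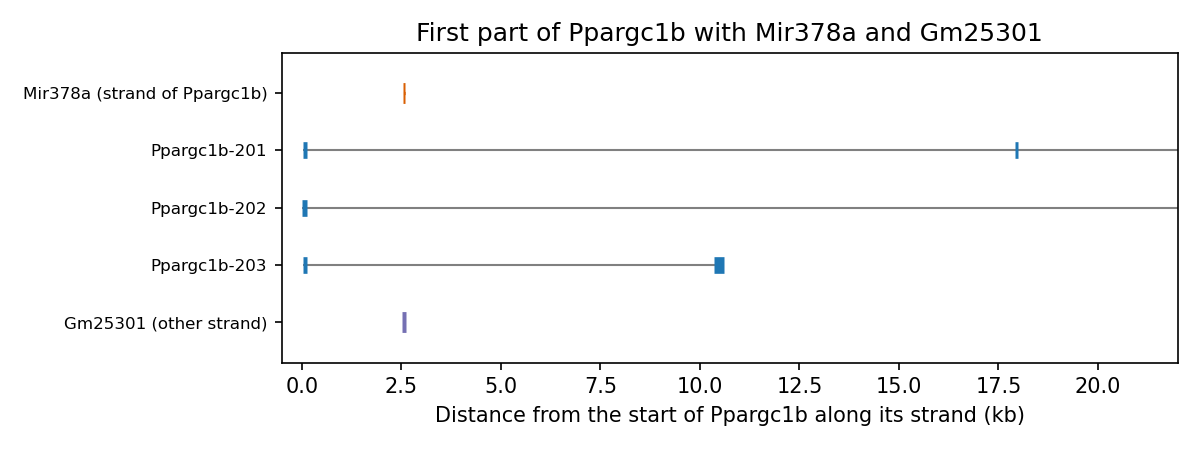
Position of Mir378a and Gm25301 (thin bars in the top and bottom rows) against the exons (blue bars) and introns (grey lines) of 3 Ppargc1b transcripts, in kb from the start of the gene along its strand; the view ends at 22 kb. Both miRNA genes sit at the same place, about 2.5 kb from the start of the gene, in its first intron.

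Mir378a was among the miRNA loci with the most counted reads in both newborn hearts. Its strand held 142295 reads in replicate 1 and 214103 in replicate 2. Set against the sense counts on all miRNA genes, this was 6.12% and 6.14% (exact Clopper-Pearson 95% intervals 6.09% to 6.16% and 6.11% to 6.16%). These opposite-strand reads are not among the sense counts, so the percentages are ratios to that total. The intervals treat the reads as a part of it. Both hearts thus gave nearly the same ratio, and the intervals overlapped. The mean was 61320 ± 109 CPM (SD, n = 2), where CPM is the count per 1000000 sense counts on miRNA genes. With the reads of Mir378a added to the total, the mean was 57777 CPM. These levels chose the locus and are given as a description, with no test. The intervals throughout describe the counting error of reads alone. Copies of a molecule made by PCR were not marked, so the intervals can be too narrow.

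The sense strand of the same row, the control, held 0 reads in both hearts. With up to 3 reads taken as possible behind a 0, this allows 0.00211% of the reads of the row in replicate 1 and 0.00140% in replicate 2. No antisense transcript of Mir378a was thus detectable in this size range at this depth.

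Mir378a alone made up most of what the tables list on the opposite strand. It held 86.5% of the 164593 opposite-strand reads in replicate 1 and 86.0% of the 249084 in replicate 2. A count taken on the sense strand puts such reads among those on no gene. There they were 47.5% of the 299572 reads on no feature in replicate 1 and 51.2% of the 418191 in replicate 2. A table read on the sense strand would list this abundant heart miRNA at 0.

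Other rows with a miRNA gene on the opposite strand were far lower. By the rule of at least 100 opposite-strand reads in both libraries, making up at least 90% of the row, 10 rows were taken, and each overlapped a miRNA gene of GENCODE M21 whose identifier had no row. Gm25301 was the first of these. The next was Gm25927, on whose opposite strand lies Mirlet7e, with 6339 and 10111 reads. Mir378a was 21.8-fold above it in mean CPM. Gm24083, opposite Mir191, followed with 5944 and 8904 reads, 24.0-fold below Mir378a. The rows opposite Mir409, Mir376a, Mir497, Mir299a, Mir142 and Mir380 held between 654 and 3496 reads in a library. The other 9 rows together held 9480 CPM in replicate 1 and 9929 CPM in replicate 2. Just inside the rule stood Gm24111, opposite Mirlet7f-1, with 236 and 383 reads. Just outside stood Mir3074-1, opposite Mir24-1, with 137 and 131 opposite-strand reads beside 63 and 106 sense reads, and Mir1b, opposite Mir1a-2, with 98 and 152 beside 7 and 9.

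The 1941 rows without such a partner gave the background of reads on the wrong strand. They held 23 opposite-strand reads in replicate 1 and 43 in replicate 2, or 0.00117% and 0.00146% of their reads, and at most 15 in any row. The 142295 and 214103 reads on the strand of Mir378a were far above this background in both hearts. These reads chose the locus, so the comparison is a description and no test.

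**Figure D2:**
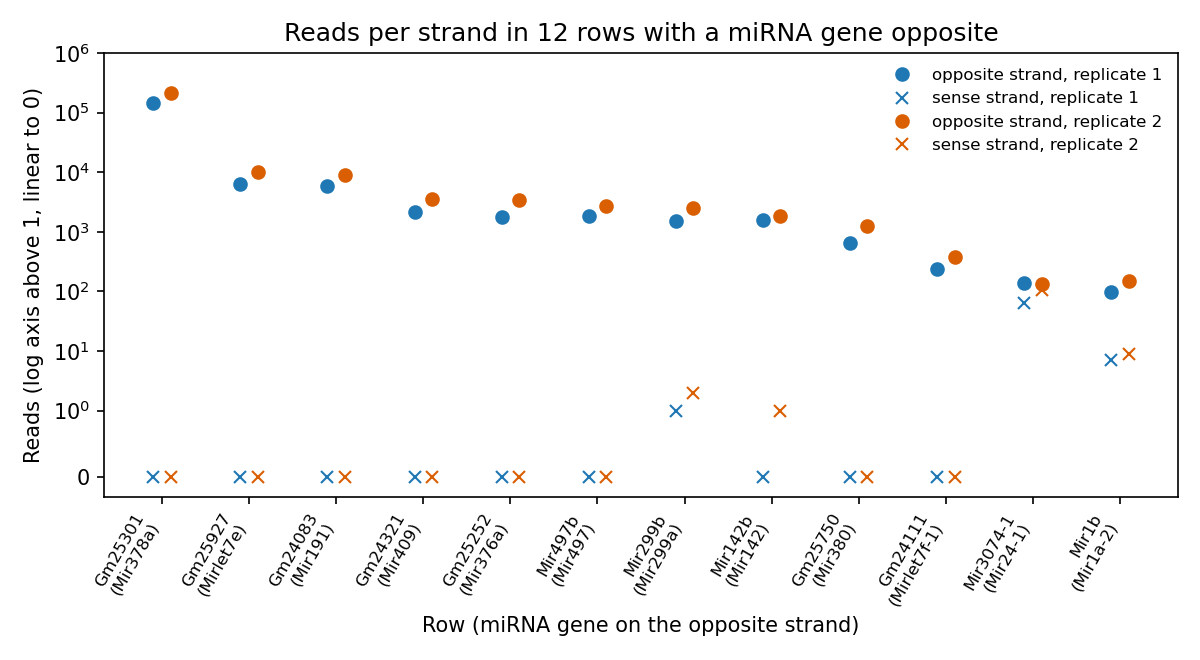
Reads on the opposite strand (circles) and on the sense strand (crosses) in replicate 1 (blue) and replicate 2 (orange), for 12 rows with an overlapping miRNA gene, named in brackets, on the other strand; the axis is logarithmic above 1 read and linear to 0. Gm25301 stands highest, with 142295 and 214103 opposite-strand reads and 0 sense reads.

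In the order of levels Mir378a took place 6 of 1974 in each heart, when set among the sense levels of all rows. Above it stood Mir126a, the miRNA of endothelial cells, at 10.7% ± 0.177, then Mir143 at 9.86% ± 0.271, Mir335 at 7.58% ± 0.402, Mir208b at 6.98% ± 0.0490 and Mir99a at 6.68% ± 0.219. Below it came Mir322 at 5.75% ± 0.0461, Mirlet7g at 4.78% ± 0.0205, Mir30e at 4.59% ± 0.0204, Mir26b at 3.34% ± 0.116 and Mirlet7i at 3.23% ± 0.0475. No neighbour overlapped with Mir378a in either pup. Mir99a lay 0.546 percentage points above, 2.49 times the larger SD of the pair, and Mir322 differed by -0.382 points, 8.28 times the larger SD. The order of these 11 was the same in both hearts. A small RNA read covers the mature miRNA, so counts were compared without division by gene length. Differences in how well each miRNA is captured in a library were not tested. Reads aligned to several places, 36.6% of all reads in replicate 1 and 37.1% in replicate 2, were counted under no gene. A miRNA with copies at several loci can thus stand too low in this order.

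**Figure D3:**
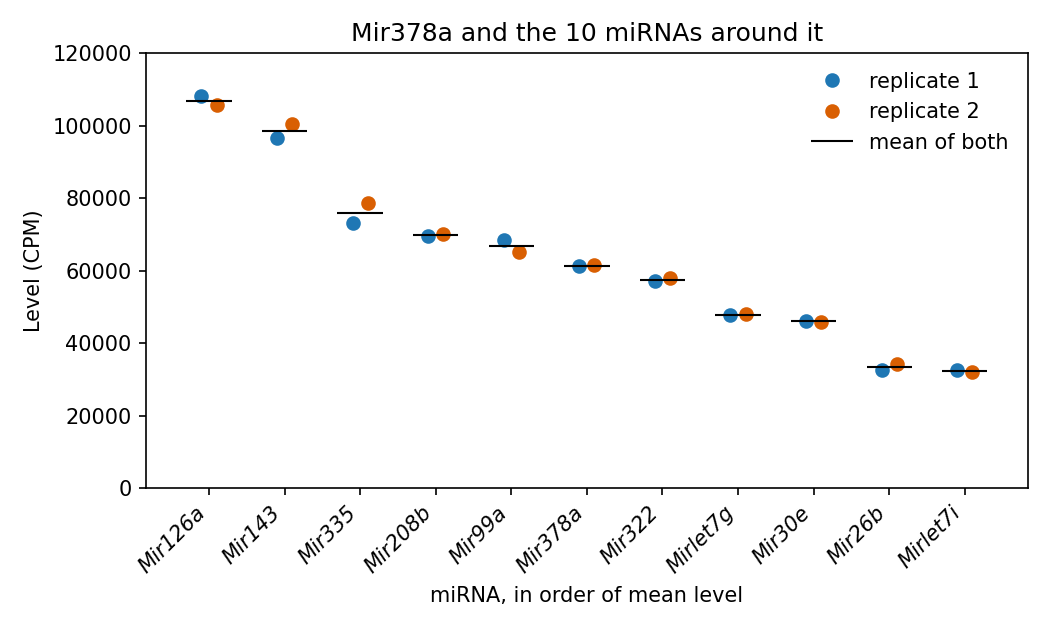
Level of Mir378a and the 5 miRNAs above and below it, in CPM, for replicate 1 (blue) and replicate 2 (orange), with the mean as a black line. The 2 Mir378a points lie together at 61243 and 61397 CPM, between Mir99a and Mir322.

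Mir378a stood 12938-fold above Mir378b, 2515-fold above Mir378c and 2822-fold above Mir378d. Mir378b, the member with its own row, had 13 reads in replicate 1 and 14 in replicate 2, or 5.60 and 4.01 CPM. Its 95% intervals, 2.98 to 9.57 CPM and 2.19 to 6.74 CPM, overlapped widely, and it took place 294 in the order. Its opposite strand held 0 reads in both libraries. The log2 ratio of Mir378a over Mir378b was 13.42 in replicate 1 and 13.90 in replicate 2, with a mean of 13.66 ± 0.341 (SD, n = 2).

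The remaining loci lay between these levels. Mir378c had 56 and 86 reads, or 24.1 and 24.7 CPM, and took place 222. Mir378d had 45 and 85 reads, or 19.4 and 24.4 CPM, and took place 227. Mir378c exceeded Mir378b by a log2 ratio of 2.36 ± 0.362 and Mir378d by 0.17 ± 0.211. The first of these ratios was larger than its spread over the pups and the second was not. Mir378a held 99.92% of the family reads in replicate 1 and 99.91% in replicate 2. The 3 others together held 0.0801% (95% interval 0.0660% to 0.0962%) and 0.0863% (0.0743% to 0.0997%).

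Reads that aligned to several places, 36.6% of all reads in replicate 1 and 37.1% in replicate 2, were counted in a summary row and under no gene. A read of the 19 nt shared by miR-378b and miR-378c alone fits both loci. Such a read would be left out of both, so the counts of these loci can be too low. The RefSeq set gave no mature sequence of Mir378a, so whether such a read fits Mir378a as well was not tested. Whether reads of Mir378a were counted at Mir378b, Mir378c or Mir378d was not tested either. The ratios between the miR-378 loci and the family shares carry this limit. miR-378d shared at most 14 nt in a run with either. The share of Mir378a reads left out in this way was not tested.

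**Figure D4:**
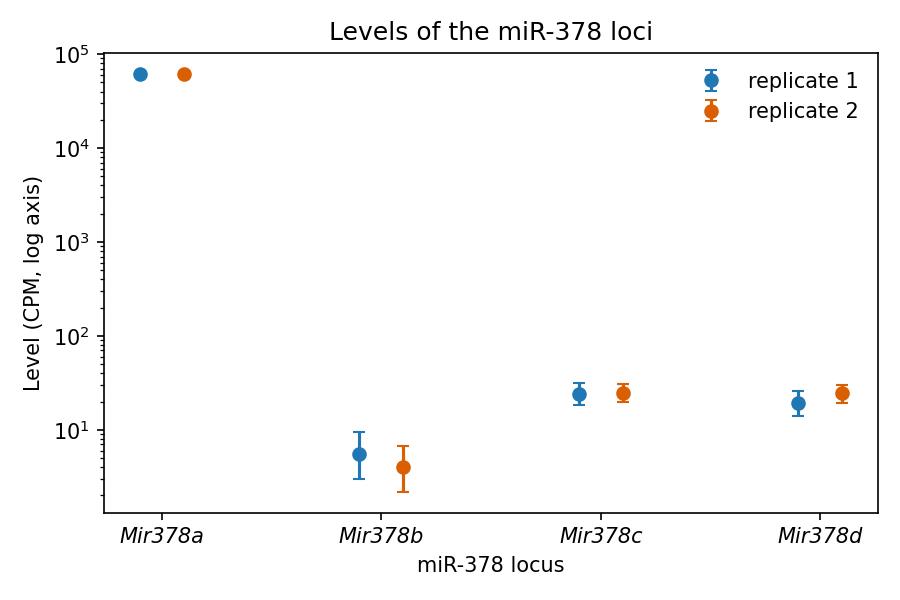
Levels of the 4 miR-378 loci in CPM on a log axis for replicate 1 (blue) and replicate 2 (orange), with exact 95% intervals of the counting error as bars. Mir378a lies at 61243 and 61397 CPM, and the other 3 loci between 4.01 and 24.7 CPM.

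The 2 hearts were then compared, a question that the choice of the loci did not use. An exact two-sided binomial test was run on every feature, a feature being the sense or opposite strand of a row with at least 1 read, given library sizes scaled by edgeR's TMM factors. Of 652 features, 91 (14.0%) differed at a Benjamini-Hochberg adjusted p below 0.05, 58 higher and 33 lower in replicate 2. Among the 363 features with 10 or more counts over both libraries, 105 (28.9%) did. The test compares 2 libraries at counting error only, and the difference has no replicate check. In the log2 ratios, 0.5 counts were added to both libraries only where a feature had 0 reads in 1 of them, which was the case for none of the miR-378 loci.

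Of the 4 miR-378 loci, 0 passed among all 652 features, of which 14.0% did, and 1, Mir378a, passed among the 363 with 10 or more counts, of which 28.9% did. For Mir378a the log2 ratio of replicate 2 over replicate 1 was -0.013 (95% interval -0.022 to -0.0031, exact binomial test), with an adjusted p of 0.0639 over the 652 features and 0.0356 over the 363. Its sign turned with the scaling: it was 0.0036 with total sense counts (adjusted p = 0.848, exact binomial test), -0.0054 with DESeq2 size factors (adjusted p = 0.736, exact binomial test) and 0.031 with all reads of the table (adjusted p = 5.65e-09, exact binomial test). A log2 ratio of 0.031 was the largest of these 4 in size, so the hearts differed little in Mir378a under each of them, and the direction was not settled.

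Among the smaller loci the intervals were wide. Mir378b had a log2 ratio of -0.50 (95% interval -1.69 to 0.71, adjusted p = 0.815, exact binomial test). Mir378c had 0.017 (-0.49 to 0.53, adjusted p = 1) and Mir378d 0.32 (-0.22 to 0.87, adjusted p = 0.737), by the same exact binomial test. At 13 and 14 reads, no difference of Mir378b between the hearts was detected, and its interval held ratios in both directions.

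At high counts most miRNAs did pass: of 22 features with a mean of 10000 CPM or more, 17 were called over the 652 features, without Mir378a, and 18 over the 363, with Mir378a. Over the 20 most abundant features, the coefficient of variation of CPM between the pups was 0.178% for Mir378a, the second lowest after Mir30a at 0.0316%. The other 19 had a median of 3.28%, up to 17.0% for Mir351. By the size of the TMM-scaled log2 ratio Mir378a took place 4 among the same 20, whose other members had a median of 0.070.

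**Figure D5:**
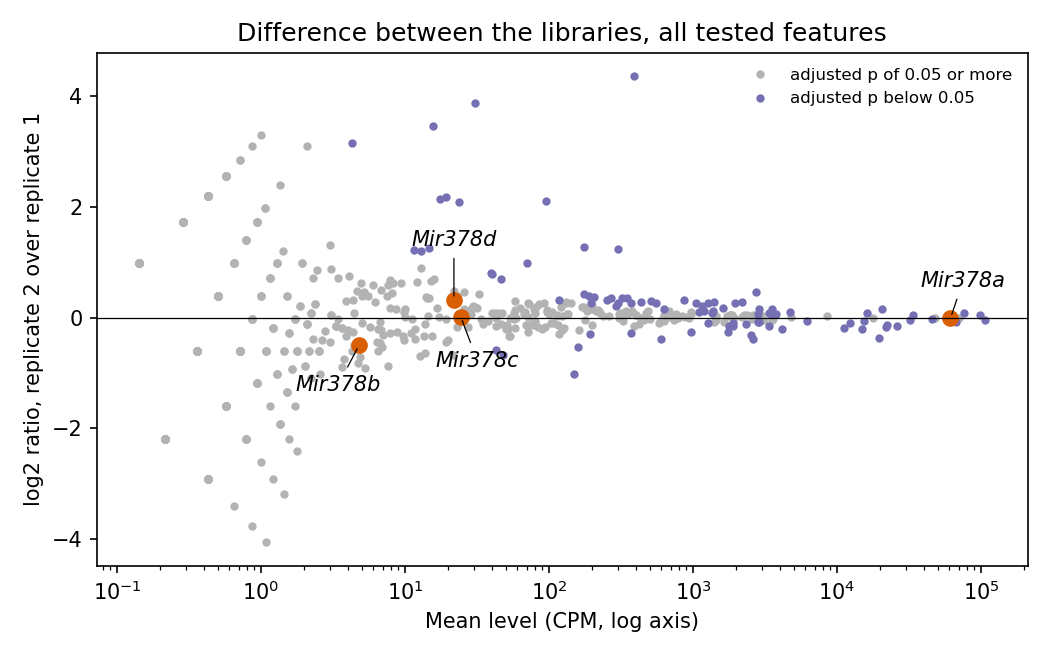
Log2 ratio of replicate 2 over replicate 1, scaled by TMM, against the mean level in CPM on a log axis, for 652 features, with those at an adjusted p below 0.05 in purple, the others in grey and the 4 miR-378 loci in orange. Mir378a lies at -0.013 at the right end, and Mir378b, Mir378c and Mir378d lie among the grey points at low levels.

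Among miRNAs that lie in a protein-coding gene on its strand, Mir378a was again near the top. At a mean of 50 CPM or more there were 87 such features, of which 71 overlapped no exon of any host. Mir378a took place 4 of the 87, where Mir126a, in Egfl7, stood first; Mir126a was not among the 71, since it overlaps an exon of a second host, Gm20532. Mir378a took place 3 of the 71 and held 13.5% of their summed level. Above it among these stood Mir335, in the imprinted gene Mest, and Mir208b, in the beta-myosin heavy chain gene Myh7. Below it came Mirlet7g in Wdr82 and Mir30e in Nfyc. The median of the 71 was 640 CPM.

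Beside the miRNAs of the myosin genes, which mark heart muscle, Mir378a stood slightly below Mir208b and above Mir208a and Mir499. The log2 ratio of Mir378a over Mir208b was -0.19 ± 0.00755, or 0.879-fold, and over Mir208a, in the alpha-myosin gene Myh6, it was 2.04 ± 0.138, or 4.11-fold. Over Mir499, in Myh7b, it was 3.68 ± 0.0202, or 12.8-fold. These 3 ratios had the same sign in both hearts and were larger than their SD.

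Other miRNAs known for energy metabolism were mostly lower than Mir378a, as were most of all features, since Mir378a took place 6 of 1974. Of the 25 on the list, 24 had a row and 20 of them reached 2 CPM in both hearts; together the 24 held 13.5% ± 0.215 of the sense counts. Mir143, which is also the smooth muscle marker, took most of that and was the only member above Mir378a. Mir22, a miRNA of heart and muscle known for roles in cardiac hypertrophy, stood at 2.22% ± 0.117, and Mir378a exceeded it by a log2 ratio of 1.47 ± 0.0789. Mir107, in the pantothenate kinase gene Pank1 of coenzyme A synthesis, stood at 4742 ± 294 CPM, 12.9-fold below Mir378a. Mir181c stood at 2618 ± 85.5 CPM, Mir27b at 2263 ± 76.7 CPM and Mir210, the hypoxia miRNA, at 879 ± 11.2 CPM. Mir33, in the sterol regulator gene Srebf2, had 64 and 112 reads, and Mir802 had 0 in both. The limit on reads aligned to several places holds for numbered copies on this list, such as Mir133a-1 and Mir133a-2.

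Between the hearts, 9 of the 23 tested members of this list differed by the exact binomial test, 7 higher and 2 lower in replicate 2, beside 14.0% of all features. With 10 or more counts required, it was again 7 higher and 2 lower, of 21 tested, beside 28.9%. Their median log2 ratio was 0.053 and that of all features was 0.030. Mir22 was lower (log2 ratio -0.12) and Mir107 higher (0.11), both with TMM scaling and both larger in size than the 4 ratios of Mir378a.

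The tissue label was checked against markers. Of the heart muscle list, Mir208a, Mir208b and Mir499 were abundant, while Mir1a-1 (17 and 19 reads) and Mir133a-1 (20 and 25 reads) were low; both have a copy elsewhere in the genome with the same mature miRNA. The 5 members together held 9.01% in replicate 1 and 8.89% in replicate 2. Brown fat, which also carries miR-378, was sought because fat lies close to the heart: its 3 markers together stood at 29.7 and 52.8 CPM, with Mir193b at 68 and 179 reads, Mir365-1 at 1 and 1 and Mir365-2 at 0 and 4. Mir193b was called higher in replicate 2 (log2 ratio 0.79, adjusted p = 0.000692, exact binomial test), 1 of the 3. Of all 652 features, 58 were called higher in replicate 2. The Mir365 genes are copies with the same mature miRNA, so the limit on reads aligned to several places holds for them too. The 7 epithelial markers gave a sum of 208 CPM in the first library and 631 CPM in the second. Of these, 6 of 7 were called higher in replicate 2, beside the 58 of 652 features called higher. In either direction, 14.0% of all features were called and 28.9% of those with 10 or more counts. The 3 markers of multiciliated cells gave 221 and 1184 CPM, with 3 of 3 called higher in replicate 2, beside the same shares of all features. Mir378a stood at 61243 and 61397 CPM in the same libraries. The part of these other cell types in the Mir378a level was not tested. In a whole heart, fewer cells of a type and less RNA per cell cannot be told apart.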

How the data were processed

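Small RNA was sequenced from 2 newborn hearts (1 group, 2 libraries). The authors deposited read counts per miRNA gene, as whole numbers without normalization, in 3 unnamed columns. In all 1973 rows the first equalled the sum of the others; of these, the one with the larger total was taken as sense and the other as opposite. Per the description deposited with each library, assembly mm10 and GENCODE M4 were used; the aligner, counter and their settings are not given in the sources used here. The 4 summary rows were kept out of totals. The sense totals were 2323450 counts in replicate 1 and 3487183 in replicate 2, so 1 read is 0.430 and 0.287 CPM.

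Of the 1973 identifiers, 1894 matched GENCODE M21, also on GRCm38, which gave symbols, positions and hosts; the 79 others had 0 counts. Scaling used edgeR 4.0.16 (TMM) and DESeq2 1.42.0 (size factors), and tests used scipy 1.17.1. A count test with replicates of 2 conditions was not possible with 1 group, so the exact binomial test with Benjamini-Hochberg adjustment compares the libraries; it was tested on simulated data. Named miRNAs were the miR-378 loci, the 5 above and 5 below Mir378a, the rows read on the opposite strand, and members of the metabolic, intronic and marker lists, of which most are described; Mir30a and Mir351, and Mir3074-1 and Mir1b beside the rule for opposite-strand rows, were named after their values were seen. The members and lists were chosen with earlier results of these data known. Alternatives were other denominators, scalings, pseudocounts and filters, and each library alone.

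Beside the marker lists given in the report, the endothelial list (Mir126a) held 10.7% ± 0.177, smooth muscle (Mir143, Mir145a) 10.03% ± 0.274, skeletal muscle 0.00235%, red blood cells 0.0656%, white blood cells 0.0517% and liver (Mir122) 0.00506%. The intronic list held 42.5% ± 0.319.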

Additional observations from a re-analysis of the deposited data

Results flagged for a closer look

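Opposite-strand reads outside the rows with an overlapping miRNA gene are not part of the comparisons, and in 2 rows they passed the limit of 3 reads in both libraries. Mir203 held 6 such reads in replicate 1 and 15 in replicate 2, beside 380 and 660 on its sense strand. Mir122 held 5 and 4, beside 125 and 165. Both are small next to the reads on the strand of Mir378a, 142295 and 214103.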

How the results depend on the processing

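The Mir378a level was 57248 CPM over sense plus opposite counts of all rows, 57777 CPM with its own reads added to the sense total, 57254 CPM with the reads of all 10 opposite-strand rows added (chosen after seeing the data), and 28466 CPM over all reads of the table; the denominators, which count more reads, set these values. Over all reads Mir378b stood at 2.23 CPM. The log2 ratio of Mir378a over Mir378b was 14.14 per annotated precursor length (chosen after seeing the data) and 13.61 with 0.5 counts added. The Mir378a ratio between the pups turned from -0.013 to 0.0036 with total sense counts and to 0.031 with all reads, by the construction of the library sizes. Place 6, the 0 sense reads and the 100% opposite-strand share held under each alternative run for them. With each library alone, Mir378a ranged from 61243 to 61397 CPM, Mir378b from 4.01 to 5.60 CPM, their log2 ratio from 13.42 to 13.90 and the metabolic list from 133320 to 136356 CPM. The metabolic list was 134794 CPM without numbered copies, beside 134838. The number of features called was 91 of 652 (14.0%), 99 with total sense counts, 96 with DESeq2 size factors, 86 of 615 sense features and 105 of 363 (28.9%) with 10 or more counts. With that last filter, applied to the Mir378a ratio after seeing the data, the ratio was again -0.013 and passed the threshold (adjusted p = 0.0356, exact binomial test), since fewer features were tested; over its alternatives the adjusted p ranged from 5.65e-09 to 0.848. A comparison of the pups cannot leave out a library. No paired analysis was possible because the series holds 1 group. Depth limits Mir378b, at 13 and 14 reads.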
